A study of Mus musculus with 16 samples.

Results

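Pdcd1, Lag3, Havcr2, Tigit, Btla, Cd160, Cd244a, Entpd1 and Tox, a set of inhibitory receptors and exhaustion markers of T cells, were followed by gene name through the count and TPM tables of memory CD4+ T cells, where all 9 were found among 56748 genes. RNA-Seq had been done on 16 samples of CD4+CD25low/-CD62L-CD44high cells sorted from mouse spleen, 4 each of HP1a KO, HP1a WT, HP1g KO and HP1g WT. In the HP1a line the floxed Hp1a allele had been excised with CMV-cre, so that HP1a KO cells came from Hp1a-/- mice and HP1a WT cells from Hp1a+/+ littermates. In the HP1g line both genotypes were homozygous for the floxed Hp1g allele, and HP1g KO mice also carried the Cd4-cre transgene, which deletes Hp1g only in cells that have switched on the Cd4 promoter, while their HP1g WT littermates lacked it. Mice of both lines had a mixed background (129/Sv x C57BL/6), were compared with sex-matched littermates, and were 6 to 12 weeks old. The study as a whole asked about HP1 heterochromatin proteins in the response of CD4+ T cells to suppression by regulatory T cells. Between 26694045 and 40199637 estimated counts were summed per sample, and the targeted genes moved with the labels. Cbx5, which encodes HP1a, was at 27.1 ± 2.77 CPM (counts scaled to library size, SD, n = 4) in HP1a KO against 40.3 ± 9.28 in HP1a WT without overlap, and Cbx3, which encodes HP1g, was at 47.5 ± 1.98 CPM in HP1g KO against 84.5 ± 8.66 in HP1g WT, also without overlap. The drop passed the edgeR quasi-likelihood test after Benjamini-Hochberg adjustment for Cbx3 (log2 fold change -0.82, SE 0.079, adjusted p = 0.0015) and not for Cbx5 (log2 fold change -0.58, SE 0.145, adjusted p = 0.946). These are RNA levels. For protein, the paper reported from western blots that HP1a was absent in HP1a KO and HP1g almost fully lost in HP1g KO. Those blots were of naive CD4+ T cells, not of the memory cells used here. All 7 markers of CD4+ T cells and of the memory gate were detected, with a summed level between 3652 and 4209 CPM. The labels do not say that the 4 samples of a group came from separate mice, so p values measure the spread between these samples. Each WT group serves in 2 comparisons, with its KO group and with the other WT group.

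Inhibitory receptors restrain T cells after antigen recognition: on binding a ligand, PD-1, BTLA and TIGIT recruit phosphatases to their cytoplasmic tails, LAG-3 engages MHC class II beside CD4, and TIM-3 binds galectins and other ligands. Under lasting stimulation T cells accumulate several of these receptors together with the transcription factor TOX, a state called exhaustion. In CD4+ cells the same receptors also mark activated, regulatory and follicular helper cells, so that their level in a sorted memory population is a mean over such cells. In bulk RNA, fewer cells of a type and less RNA per cell cannot be told apart. The receptors belong to several families. PD-1 (Pdcd1), LAG-3 (Lag3), TIM-3 (Havcr2), TIGIT (Tigit), BTLA (Btla) and CD160 (Cd160) carry immunoglobulin folds, CD244 (Cd244a, also 2B4) is a SLAM family receptor of CD48, and CD39 (Entpd1) is an ectoenzyme that breaks down extracellular ATP towards adenosine.

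The 9 genes lie at separate places of GRCm39. Pdcd1 spans chr1:93966027-93980312 on the minus strand and Lag3 chr6:124881320-124888765 on the minus strand, next to Cd4 on one side (6562 bases) and to Ptms on the other (1256 bases). Havcr2 spans chr11:46345673-46374149 on the plus strand, Tigit chr16:43469100-43484509 on the minus strand and Btla chr16:45044475-45078033 on the plus strand. Cd160 spans chr3:96706079-96736667 on the minus strand, Cd244a chr1:171386708-171437315 on the plus strand, Entpd1 chr19:40600810-40731585 on the plus strand and Tox chr4:6686353-6991644 on the minus strand. All are annotated as protein-coding. The span of Cd244a overlaps Ly9, a SLAM family gene of the opposite strand with up to 9332 counts in a sample, but no exon of Cd244a does. An exon of Cd160 overlaps Pdzk1, which had at most 31 counts. The kit kept strand, but whether the counting used it is not given in the sources used here.

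RefSeq promoter windows, from 250 bases before to 50 after a transcription start, were at hand for 7 of the 9 genes, and Lag3 and Tox had none. The windows of Pdcd1 and Tigit are shown because their RNA moved with that of Tox from sample to sample, and that of Btla because its RNA was the only one of the 9 that did not overlap between HP1g KO and HP1g WT. Capitals mark the NFAT core letters GGAAA on either strand. The windows, in the orientation of the gene on GRCm38.p6, lie at chr1:94052504-94052803 (minus strand), chr16:43664135-43664434 (minus strand) and chr16:45224087-45224386 (plus strand).
Pdcd1: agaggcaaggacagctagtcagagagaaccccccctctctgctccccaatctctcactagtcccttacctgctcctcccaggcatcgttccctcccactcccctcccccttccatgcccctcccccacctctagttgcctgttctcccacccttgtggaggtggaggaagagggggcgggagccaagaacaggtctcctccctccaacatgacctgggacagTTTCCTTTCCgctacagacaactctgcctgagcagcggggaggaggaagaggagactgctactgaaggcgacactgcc
Tigit: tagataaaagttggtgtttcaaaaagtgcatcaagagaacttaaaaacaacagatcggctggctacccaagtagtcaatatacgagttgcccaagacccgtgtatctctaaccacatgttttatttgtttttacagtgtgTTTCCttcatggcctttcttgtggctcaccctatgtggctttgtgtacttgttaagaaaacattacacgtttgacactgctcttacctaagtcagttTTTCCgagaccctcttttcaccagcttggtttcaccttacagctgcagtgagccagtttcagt
Btla: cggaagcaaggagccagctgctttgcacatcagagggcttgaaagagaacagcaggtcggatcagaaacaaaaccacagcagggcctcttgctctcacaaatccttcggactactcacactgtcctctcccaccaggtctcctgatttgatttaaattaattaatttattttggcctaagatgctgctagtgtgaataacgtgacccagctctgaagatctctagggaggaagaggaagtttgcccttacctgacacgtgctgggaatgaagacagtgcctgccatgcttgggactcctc
The windows of Pdcd1 and Tigit held 2 matches each, all of them on the strand opposite to the gene, and the window of Btla held none. Matches were not limited to genes that varied with Tox: the Cd244a window and 1 of the 2 Entpd1 windows held 2 each, 1 of the 2 Cd160 windows held 1, and the Havcr2 window held none. Of all 32851 windows of this length, 61.3% held at least 1 match and 26.7% held 2 or more, so that 2 matches are common. The pair in Pdcd1 stood within 28 bases of the start, at -28 and -23. AP-1 letters (TGANTCA), present in 7.81% of all windows, occurred once in the Cd244a window and once in the Havcr2 window, and TCF letters (CTTTGA), present in 16% of all windows, occurred 2 times in 1 of the 2 Cd160 windows. A match is a description of letters and shows no binding.

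Tigit was the most abundant of the 9 genes and Cd244a the least, on the scale of TPM, the level per transcript length. Tigit stood at 207 ± 68.2 TPM (SD, n = 16), above 95.7% of the 15776 genes kept by the filter on low counts, followed by Btla at 62.3 ± 9.45, Cd160 at 45 ± 13.5, Tox at 38.1 ± 8.84, Lag3 at 35.4 ± 12.8, Pdcd1 at 30.5 ± 9.34 and Entpd1 at 15.03 ± 1.67. Havcr2 (1.63 ± 0.849 TPM) and Cd244a (0.653 ± 0.439 TPM) were near the floor of the data, with 32 to 188 and 10 to 105 counts per sample. In an exact paired permutation test of log2(TPM + 1) over the 16 samples, adjusted over the 8 pairs of neighbours in this order, Cd160 and Tox (difference 0.20 log2, SD 0.63, adjusted p = 0.217) and Tox and Lag3 (difference 0.15, SD 0.29, adjusted p = 0.0714) were not told apart. The other 6 steps passed, and the step from Lag3 to Pdcd1 was the smallest of them (0.19, SD 0.31, adjusted p = 0.0301, higher in 13 of 16 samples). In the 8 WT samples alone that step did not pass (adjusted p = 0.0521, exact permutation test) and 5 steps did. The order was taken from the same samples as the tests. The place of Cd160 differed by line. Its mean was above that of Tox in HP1a KO (53.1 against 31.9 TPM) and HP1a WT (55.6 against 35.1). It was below Tox in HP1g KO (30.2 against 41.3) and HP1g WT (41.1 against 44.2).

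**Figure D1:**
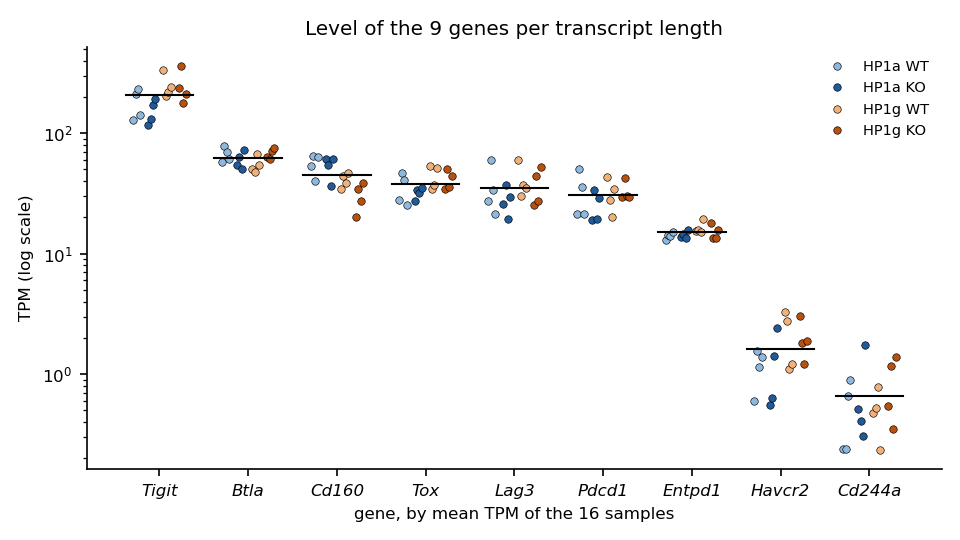
Level of the 9 genes in TPM on a log axis, in the order of their mean over the 16 samples (horizontal bars), with 1 point per sample coloured by group. Tigit lies highest with a mean of 207 TPM, 6 genes lie between means of 15.03 and 62.3, and Havcr2 and Cd244a lie at means of 1.63 and 0.653.

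The same genes differed more between samples of one group than most genes of like abundance did, Btla less clearly and Entpd1 not at all. The SD of log2 CPM within groups was 0.49 for Lag3, 0.46 for Pdcd1, 0.39 for Tigit, 0.31 for Tox and 0.31 for Cd160, against a median between 0.11 and 0.13 for genes within 0.5 log2 CPM of each. That placed Lag3 above 99.1%, Tigit above 98.9%, Pdcd1 above 98.7%, Tox above 97.7% and Cd160 above 96.6% of such genes. Havcr2 and Cd244a stood above 95.7% and 93.6% of theirs and Btla above 80.2%. Entpd1 was the steadiest, with an SD of 0.12 log2 CPM, above only 30.6% of genes at its level. From its lowest to its highest sample Entpd1 varied 1.495-fold, Btla 1.56-fold, Tigit 3.03-fold, Lag3 3.07-fold and Cd244a 8.87-fold.

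None of the 9 genes passed the test between HP1a KO and HP1a WT. In the comparison of HP1a KO with HP1a WT, 0 of the 9 had an adjusted p under 0.05 (edgeR quasi-likelihood test, Benjamini-Hochberg over 14881 genes), and 0% of all tested genes had, with 0 member genes at an unadjusted p under 0.05, where 4.27% of all genes had one, and 0 without overlap of the groups, where 2.96% of all genes had none. DESeq2 also called 0 of the 9. Their fitted changes had a median of -0.15 log2 against 0.0026 over all genes, with 7 lower and 2 higher. Adjusted p values of the 9 genes lay between 0.946 and 0.995.

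For Pdcd1, the receptor of PD-L1 and PD-L2, the HP1a KO samples had 22.1, 38.7, 23.7 and 33.5 CPM and the HP1a WT samples 24.6, 56.8, 43.5 and 24.8. Both groups held a low and a high pair and overlapped (log2 fold change -0.35, 95% interval -0.97 to 0.28). Lag3, the CD4-related receptor of MHC class II, was at 31.0, 43.9, 25.0 and 34.7 CPM in HP1a KO and 32.9, 70.5, 42.9 and 25.9 in HP1a WT, where replicate 2 stood highest for both genes. Its groups overlapped too (log2 fold change -0.36, 95% interval -0.98 to 0.27). Tigit, which binds CD155 on partner cells, was at 58.4, 64.3, 91.1 and 94.1 CPM in HP1a KO and 62.9, 101, 122 and 72.0 in HP1a WT, with overlap (log2 fold change -0.21, 95% interval -0.70 to 0.27). The HP1a KO samples of Tox, a DNA-binding regulator of the exhausted state, lay within the range of HP1a WT, at 64.6, 80.1, 82.3 and 85.0 CPM against 66.7, 110, 106 and 62.7 (log2 fold change -0.15, 95% interval -0.55 to 0.26).

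Btla, a receptor of HVEM, gave the smallest unadjusted p of the 9 genes in that comparison. Its HP1a KO samples were at 80.3, 96.2, 89.1 and 107.2 CPM and its HP1a WT samples at 94.9, 125, 112 and 92.9, with 2 KO samples inside the WT range and the other 2 below it (log2 fold change -0.19, 95% interval -0.44 to 0.060, exact permutation p = 0.2, edgeR adjusted p = 0.946). For Cd160, which shares the ligand HVEM with BTLA, HP1a KO had 40.8, 36.2, 25.8 and 40.6 CPM and HP1a WT 35.6, 43.4, 28.4 and 42.2, and in both groups replicate 3 was lowest (log2 fold change -0.06, 95% interval -0.43 to 0.31). Entpd1, the ATP-degrading enzyme, had the narrowest interval: it was at 21.1, 20.1, 19.5 and 23.2 CPM against 19.7, 22.8, 23.3 and 21.3 (95% interval -0.23 to 0.13). The sparse genes were less certain. Havcr2 was at 0.850, 1.05, 2.53 and 3.96 CPM in HP1a KO and 0.999, 2.54, 2.02 and 2.37 in HP1a WT (95% interval -0.98 to 1.14), and Cd244a at 0.925, 0.827, 0.647 and 2.50 CPM against 0.562, 0.504, 1.21 and 1.45 (95% interval -0.69 to 1.51).

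Between HP1g KO and HP1g WT none of the 9 genes passed either, and Btla, higher in KO, and Cd160, lower in KO, had the smallest p values. Of the 9 genes 0 had an adjusted p under 0.05 (edgeR quasi-likelihood test, 14975 genes), against 0.327% of all tested genes, and DESeq2 also called 0. At an unadjusted p under 0.05 there were 2 of the 9, Btla and Cd160, against 11.9% of all genes, and 1 of the 9, Btla, had groups without overlap, against 7.11% of all genes. Again 7 were lower and 2 higher, with a median of -0.14 log2 against 0.00050 over all genes.

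Btla was at 98.0, 97.6, 119 and 109 CPM in HP1g KO and at 90.2, 86.3, 97.5 and 86.9 in HP1g WT. Every HP1g KO sample lay above every HP1g WT sample, with the closest pair at 97.6 and 97.5 CPM, and the means were 106 ± 10.2 and 90.2 ± 5.14 CPM (SD, n = 4 each, log2 fold change 0.24, SE 0.078, exact permutation p = 0.0286, edgeR adjusted p = 0.320). That permutation p is the smallest that 4 against 4 samples allow. Cd160 moved the other way, with 13.2, 22.0, 18.2 and 25.0 CPM in HP1g KO and 24.7, 30.4, 24.9 and 31.6 in HP1g WT. A single KO sample, replicate 4, reached the lower WT samples (means 19.6 ± 5.11 and 27.9 ± 3.61 CPM, log2 fold change -0.50, SE 0.176, exact permutation p = 0.0857, edgeR adjusted p = 0.348). With DESeq2 the adjusted p values were 0.207 for Btla and 0.154 for Cd160. BTLA is also abundant on B cells, and CD160 on NK and CD8+ T cells. The 8 B cell markers, all detected, summed to 61.6 to 66.3 CPM in HP1g KO and 44.3 to 53.9 in HP1g WT without overlap, and to 57.7 to 78.3 in HP1a KO and 51.5 to 69.0 in HP1a WT. The 6 NK cell markers summed to 31.7 to 52.6 CPM in HP1g KO and 33.7 to 56.2 in HP1g WT, and the 2 CD8 T cell markers to 7.66 to 18.5 and 5.74 to 10.4. Deviations of log2 CPM from group means over the 16 samples gave Pearson's r = 0.213 for Btla with the B cell markers (adjusted permutation p = 0.840). For Cd160 r was 0.598 with the NK cell markers (adjusted permutation p = 0.220) and 0.427 with the CD8 T cell markers (adjusted permutation p = 0.527). None of these passed. The part of such cells in the levels of Btla and Cd160 was not tested.

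For Pdcd1, Lag3, Tigit and Tox the HP1g KO samples overlapped with the HP1g WT samples. Pdcd1 was at 33.1, 46.7, 34.1 and 32.7 CPM in HP1g KO and 53.4, 33.6, 22.4 and 40.1 in HP1g WT, with KO samples inside the WT range (log2 fold change -0.02, 95% interval -0.51 to 0.48). Lag3 was at 29.0, 50.1, 32.4 and 59.7 CPM against 76.7, 37.2, 42.9 and 42.1, and replicate 1 of HP1g WT alone stood above all KO samples (log2 fold change -0.20, 95% interval -0.80 to 0.40). Tigit was at 115, 169, 86.9 and 99.9 CPM against 177, 105, 103 and 120 (log2 fold change -0.09, 95% interval -0.58 to 0.40), and Tox at 80.2, 117, 85.4 and 102 against 134, 87.6, 86.6 and 125 (log2 fold change -0.16, 95% interval -0.53 to 0.21). In each of these 4 genes a doubling or halving of the mean, a log2 change of 1 in size, lay outside the interval.

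Havcr2 was at 4.93, 2.89, 1.99 and 2.87 CPM in HP1g KO and 5.77, 4.79, 1.76 and 2.04 in HP1g WT (95% interval -1.07 to 0.73). Cd244a had the largest fitted change of the 9 and the widest interval, at 1.25, 1.84, 0.522 and 2.69 CPM against 1.00, 1.22, 0.911 and 0.304, with overlap (log2 fold change 0.89, 95% interval -0.24 to 2.01). Entpd1 was at 22.9, 22.5, 20.4 and 24.0 CPM against 23.4, 24.0, 23.4 and 29.2, where HP1g WT replicate 4 stood apart (log2 fold change -0.14, 95% interval -0.35 to 0.063).

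**Figure D2:**
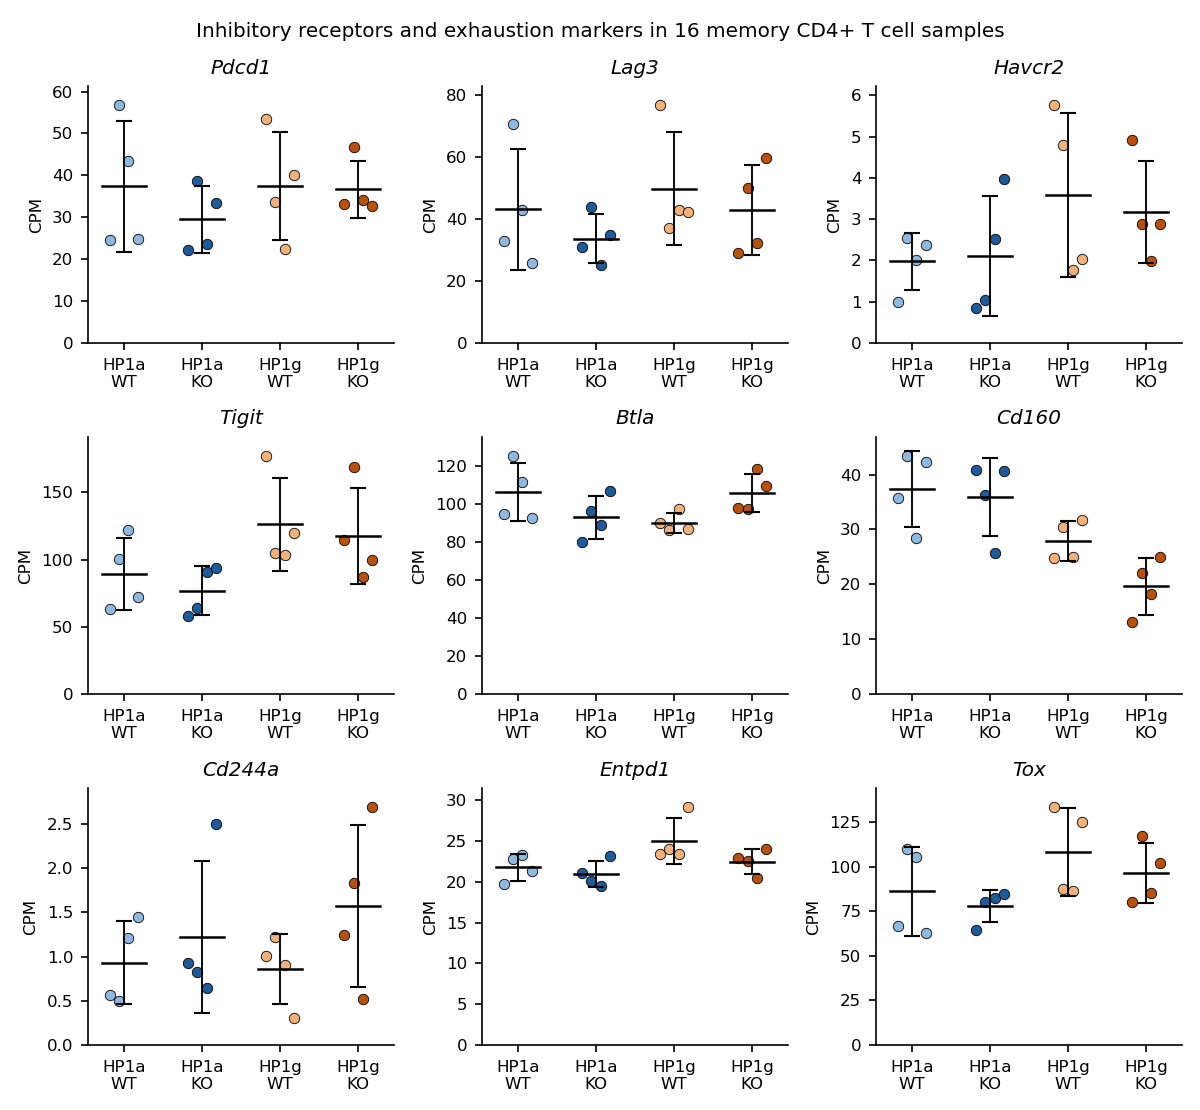
CPM of each of the 9 genes in the 16 samples, with 1 panel per gene, 1 point per sample, the group mean as a horizontal bar and the SD (n = 4) as an error bar. The groups overlap within each line except for Btla, whose HP1g KO samples (97.6 to 119 CPM) lie above its HP1g WT samples (86.3 to 97.5 CPM).

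The differences between KO and WT in the 2 lines were compared with each other as an interaction over all 16 samples. Of the 9 genes 0 passed at an adjusted p under 0.05, against 0.0507% of 15776 genes, and 1, Btla, had an unadjusted p under 0.05, against 9.58%. The fitted change of Btla was -0.19 log2 in the HP1a line and 0.24 in the HP1g line, and the difference was -0.42 (SE 0.146, 95% interval -0.73 to -0.11, edgeR adjusted p = 0.440). For Cd160 the difference was 0.45 (95% interval -0.11 to 1.00, edgeR adjusted p = 0.625). For Tox it was 0.02, with an interval from -0.55 to 0.59.

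None of the 9 genes passed between the WT controls of the lines either, and Cd160 came closest. HP1a WT and HP1g WT differ in line and litters, and the lines cannot be told apart from any difference in handling. At an adjusted p under 0.05 the edgeR test called 0 of the 9 genes against 12.7% of 14804 genes, at an unadjusted p under 0.05 it found 3 of the 9 against 29.9%, and 1 of the 9 had groups without overlap against 19.5%. Cd160 was nearest to the threshold, at 37.4 ± 6.91 CPM in HP1a WT and 27.9 ± 3.61 in HP1g WT (SD, n = 4 each). The groups overlapped through HP1a WT replicate 3 (log2 fold change 0.42, SE 0.136, exact permutation p = 0.0857, edgeR adjusted p = 0.0661). Without that sample the adjusted p was 0.0221, and DESeq2 gave 0.0286 on all samples, so that the call for Cd160 turned on 1 sample and on the test.

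Tigit was at 89.3 ± 26.9 CPM in HP1a WT against 126 ± 34.7 in HP1g WT (log2 fold change -0.50, SE 0.221, exact permutation p = 0.143, edgeR adjusted p = 0.158), and Btla at 106 ± 15.3 against 90.2 ± 5.14 (log2 fold change 0.23, SE 0.097, exact permutation p = 0.0857, edgeR adjusted p = 0.137). Neither passed after adjustment. Entpd1 was the gene without overlap, at 19.7 to 23.3 CPM in HP1a WT and 23.4 to 29.2 in HP1g WT, although its fitted difference was small (log2 fold change -0.20, SE 0.095, edgeR adjusted p = 0.186). The level of Pdcd1 was nearly the same, 37.4 ± 15.7 and 37.4 ± 12.9 CPM, with an interval of the log2 fold change from -0.66 to 0.66. Havcr2 had fitted changes of -0.85 (95% interval -1.76 to 0.055), Tox of -0.33 (-0.78 to 0.13), Lag3 of -0.21 (-0.87 to 0.46) and Cd244a of 0.10 (-0.93 to 1.13), all with overlap.

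The lines were also compared with both genotypes averaged, a contrast chosen after seeing the data, in which 41.8% of 15776 genes were called. The KO samples entered on both sides, so this contrast mixes the line difference with the KO differences of the 2 lines. In it 2 of the 9 genes passed the edgeR test. Cd160 ran from 25.8 to 43.4 CPM (median 38.4) in the 8 HP1a line samples and from 13.2 to 31.6 (median 24.8) in the 8 HP1g line samples (log2 fold change 0.65, SE 0.131, adjusted p = 0.00106). Tigit ran from 58.4 to 122 CPM (median 81.5) and from 86.9 to 177 (median 109.7), respectively (log2 fold change -0.55, SE 0.172, adjusted p = 0.0164). Both genes overlapped between the lines. Between the WT groups alone the log2 fold change was 0.42 for Cd160 and -0.50 for Tigit. In HP1g KO against HP1g WT, Cd160 stood at -0.50. Entpd1, Tox and Havcr2 had the same sign as Tigit without passing (adjusted p = 0.064, 0.0725 and 0.102), and Pdcd1, Lag3, Btla and Cd244a had adjusted p values from 0.324 to 0.809.

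**Figure D3:**
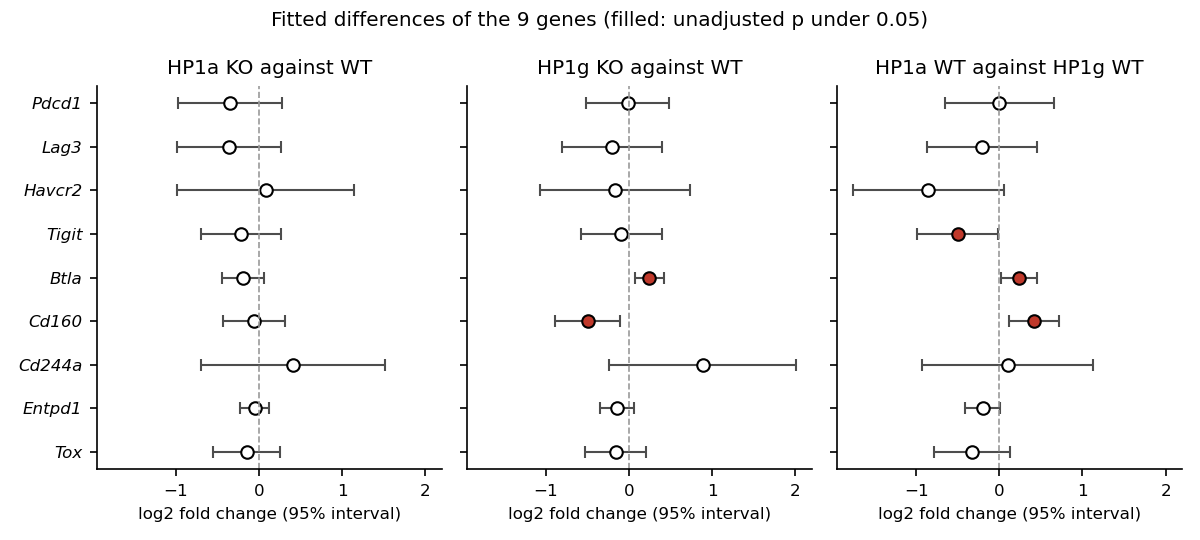
Fitted log2 fold change of each gene (points) with its 95% interval (bars) in the comparisons of KO with WT in each line and of the WT groups, where filled points have an unadjusted p under 0.05. In the HP1a line no point is filled, in the HP1g line Btla (0.24) and Cd160 (-0.50) are, and between WT groups Tigit (-0.50), Btla (0.23) and Cd160 (0.42) are.

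Across samples of a group Tox varied together with Pdcd1 and Tigit, and Lag3 came close to the threshold. The deviations of log2 CPM from the mean of the group were correlated for the 36 pairs of the 9 genes, so that no difference between groups entered, and 31 of the 36 correlations were positive (median 0.29). After adjustment over the 36 pairs 2 passed, both with Tox. Tox and Pdcd1 had Pearson's r = 0.856 (permutation p = 0.00108, adjusted p = 0.0317) and Spearman's rho = 0.826 (permutation p = 0.00315, adjusted p = 0.0567) over 16 samples. Tox and Tigit had r = 0.804 (permutation p = 0.00176, adjusted p = 0.0317) and rho = 0.815 (permutation p = 0.00094, adjusted p = 0.0338). Without the 2 samples farthest from the median of Tox, r was 0.812 with Pdcd1 and 0.776 with Tigit. Within the 8 samples of the HP1a line and of the HP1g line r was 0.880 and 0.825 for Pdcd1 and 0.855 and 0.749 for Tigit.

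Lag3 followed Pdcd1 (r = 0.743, permutation p = 0.00561, adjusted p = 0.0596; rho = 0.656, permutation p = 0.0204, adjusted p = 0.123) and Tox (r = 0.752, permutation p = 0.00662, adjusted p = 0.0596; rho = 0.709, permutation p = 0.0122, adjusted p = 0.111) just short of the threshold. Without the 2 farthest samples these values fell to 0.571 and 0.692. The 2 passing pairs were not called (adjusted p up to 0.148) when HP1a KO replicate 1 or 4, HP1g KO replicate 2 or 3, or any 1 of the 4 HP1g WT samples was left out, while r stayed between 0.820 and 0.896 for Tox and Pdcd1 and between 0.771 and 0.841 for Tox and Tigit in all 16 omissions. Cd160 and Cd244a stood apart from this group, with r of 0.07 and -0.02 with Tox and 0.12 and -0.02 with Pdcd1.

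For Btla the correlations had opposite signs in the lines. Its r with Pdcd1 was 0.915 in the 8 HP1a line samples and -0.466 in the 8 HP1g line samples, and with Tox 0.885 and -0.285. Over all 16 samples r was 0.467 with Pdcd1 (adjusted permutation p = 0.4002). The difference between the lines was not tested.

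**Figure D4:**
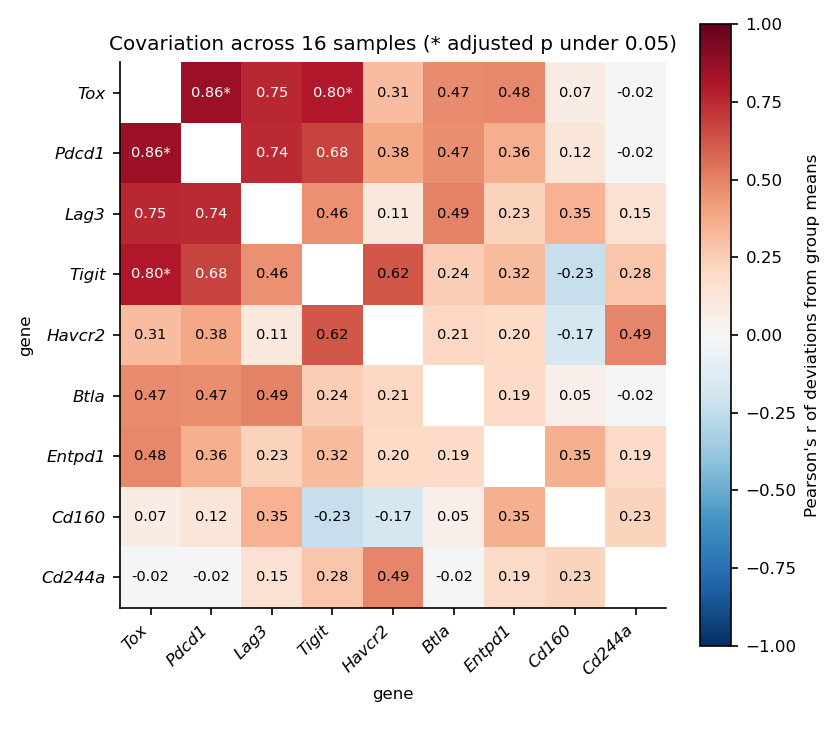
Pearson's r between the deviations of log2 CPM from group means for each pair of the 9 genes over 16 samples, on a colour scale from -1 to 1, with stars for an adjusted p under 0.05. Tox with Pdcd1 (0.86) and with Tigit (0.80) carry stars, and Tox, Pdcd1, Lag3 and Tigit form a block with values from 0.46 to 0.86.

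Markers of T cell subsets varied with these genes. The summed CPM of 9 marker lists was set against the 9 genes in the same way, and 6 of the 81 relations passed by Pearson's r after adjustment. Tox followed the 8 follicular helper T cell markers, which include Cxcr5, Bcl6 and Il21, with r = 0.913 (permutation p = 0.00015, adjusted p = 0.00783) and rho = 0.938 (permutation p = 0.00032, adjusted p = 0.015), and r was 0.8997 without the 2 farthest samples and 0.911 and 0.922 within the lines. For Pdcd1 and the same list r was 0.889 (permutation p = 0.00029, adjusted p = 0.00783) and rho 0.826 (permutation p = 0.00063, adjusted p = 0.017), with 0.864 without the 2 farthest samples. For Lag3 r was 0.772 (permutation p = 0.00256, adjusted p = 0.0386) and rho 0.721 (permutation p = 0.00788, adjusted p = 0.0709), with 0.696 without them. Within the HP1a and HP1g lines r was 0.957 and 0.827 for Pdcd1 and 0.944 and 0.604 for Lag3. All 8 markers had counts, and their sum ran from 152 to 186 CPM in HP1a KO, 140.5 to 266 in HP1a WT, 180 to 282 in HP1g KO and 165 to 271 in HP1g WT. The part of follicular helper cells in the covariation was not tested.

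Tigit followed the 7 regulatory T cell markers, among them Foxp3, Il2ra and Ikzf2, with r = 0.802 (permutation p = 0.00086, adjusted p = 0.0174) and rho = 0.803 (permutation p = 0.00195, adjusted p = 0.0395), with 0.804 without the 2 farthest samples and 0.817 and 0.827 within the lines. Pdcd1 followed them too (r = 0.755, permutation p = 0.00286, adjusted p = 0.0386; rho = 0.718, permutation p = 0.00663, adjusted p = 0.0671; 0.674 without the 2 farthest samples). The sort kept cells with low or no CD25, yet Foxp3 was present at 57.5 to 164 CPM in every sample, and the summed list ran from 319 to 432 CPM in HP1a KO, 344 to 444 in HP1a WT, 385 to 566 in HP1g KO and 315 to 519 in HP1g WT. All 7 genes had counts. The part of regulatory T cells in the level of Tigit and Pdcd1 was not tested.

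Cd244a, known from NK, CD8+ and myeloid cells, followed the 6 dendritic cell markers with r = 0.840 (permutation p = 0.00023, adjusted p = 0.00783) and rho = 0.826 (permutation p = 0.00037, adjusted p = 0.015), with 0.841 without the 2 farthest samples and 0.874 and 0.837 within the lines. That list was detected in full and its sum ran from 20.2 to 55.7 CPM in HP1a KO, 17.6 to 33.0 in HP1a WT, 41.5 to 156 in HP1g KO and 19.0 to 78.7 in HP1g WT. Siglech gave most of it, at 10.4 to 110 CPM, and Xcr1 stayed between 0.121 and 0.562 CPM. The part of other cells in the level of Cd244a was not tested.

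**Figure D5:**
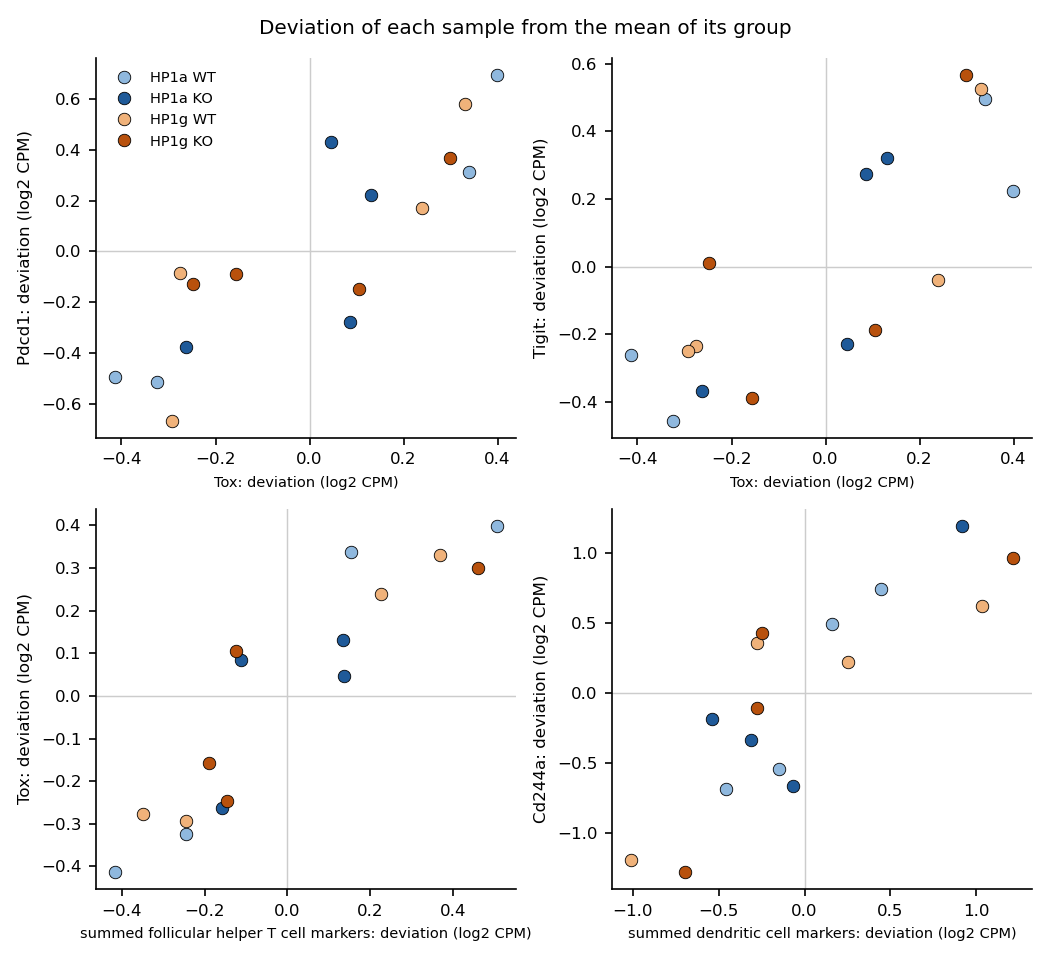
Deviation of each sample from the mean of its group in log2 CPM, with 1 point per sample coloured by group, for Pdcd1 and Tigit against Tox, for Tox against the summed follicular helper T cell markers and for Cd244a against the summed dendritic cell markers. Points of all 4 groups run from lower left to upper right, with r of 0.856, 0.804, 0.913 and 0.840.

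The genes whose deviations were most like those of each member were looked up among 9745 genes with a mean of at least 5 CPM, as a description over 16 samples. Tox was most like Slc22a15 (r = 0.954), Itgb8 (0.944) and Prnp (0.934), and Prnp was also second for Pdcd1 (0.884), after Eea1 (0.914) and before Sccpdh (0.876). Tigit was most like Phlpp1 (0.955), Itgav (0.936) and Dab2ip (0.935). Lag3 was most like Serinc5 (0.907), Phactr2 (0.905) and its neighbour on the chromosome Ptms (0.882). For Cd160 the list was led by Cbx1 (0.923), which encodes HP1b, followed by Trgc4 (0.905) and Bid (0.892). Havcr2 was most like Marcks (0.887), P2ry10 (0.885) and Cox16 (0.877), Btla like Lactb2 (0.879), Camk2d (0.877) and Opa1 (0.867), and Cd244a like Zc3h12c (0.891), Ccnd1 (0.871) and Sord (0.864). Entpd1 had the loosest partners, 9530068E07Rik (0.779), Fam174a (0.767) and Zswim9 (0.759).

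The genes next to the 9 on the chromosomes did not pass between KO and WT either, where 0% of all genes passed in the HP1a line and 0.327% in the HP1g line. Of the nearest tested genes on either side, Zbtb20, a transcriptional repressor 6135 bases from Tigit, had the smallest adjusted p, in HP1g KO against HP1g WT (log2 fold change 0.43, edgeR adjusted p = 0.0702), where Tigit itself stood at -0.09. Cd4, beside Lag3, had log2 fold changes of 0.06 in the HP1a line and 0.09 in the HP1g line (adjusted p = 0.946 and 0.711). Between the WT groups Ccnj, 88083 bases from Entpd1, and Rab2a, the nearest tested gene on its side of Tox but 1543819 bases away, were called lower in HP1a WT (log2 fold changes -0.58 and -0.40, edgeR adjusted p = 0.0081 and 0.041). Of all genes 12.7% were called there.

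The ligands and signalling partners of the receptors were also without a called change in either knockout. Of 13 ligands and counter-receptors 9 were tested in the HP1a line and 10 in the HP1g line, and of 12 other inhibitory receptors, 14 costimulatory receptors of the same families and 17 signalling genes downstream, 12, 14 and 15 were tested in each. None of them passed at an adjusted p under 0.05 in the edgeR test of KO against WT of either line. Of all tested genes 0% passed in the HP1a line and 0.327% in the HP1g line. At an unadjusted p under 0.05 stood, in the HP1a line, 2 of the other inhibitory receptors, both higher, and in the HP1g line 2 ligands and 2 other inhibitory receptors, which were higher, with 1 other inhibitory receptor, 2 costimulatory receptors and 1 signalling gene, which were lower. Over all genes such a p was found for 4.27% in the HP1a line and 11.9% in the HP1g line. Hmgb1 (533 TPM), Cd48 (144) and Lgals9 (142) were the most abundant ligands. Ctla4, which competes with CD28 for CD80 and CD86, was at 286 CPM in HP1a KO, 331 in HP1a WT, 384 in HP1g KO and 368 in HP1g WT (log2 fold changes -0.21 and 0.07, adjusted p = 0.946 and 0.882). Cd5, a negative regulator of T cell receptor signalling, was higher in KO without overlap in both lines, by a small amount, at 731 against 661 CPM in the HP1a line (log2 fold change 0.15, SE 0.052, adjusted p = 0.946) and 753 against 669 in the HP1g line (log2 fold change 0.18, SE 0.061, adjusted p = 0.336). Groups without overlap were found for 2.96% of all genes in the HP1a line and 7.11% in the HP1g line.

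Between the WT groups 7 of these partners passed, over lists in which 9, 12, 14 and 15 genes were tested, a share near the 12.7% of all genes called there. Cd274, which encodes PD-L1, was at 119 CPM in HP1a WT and 199 in HP1g WT (log2 fold change -0.74, SE 0.107, edgeR adjusted p = 0.00378), and Cd48, the ligand of CD244, was higher in HP1a WT (log2 fold change 0.36, adjusted p = 0.0303). Those were the 2 called of 9 tested ligands. Of the other inhibitory receptors 1 of 12 was called, Cd200r1 (0.77, adjusted p = 0.0104). Of the costimulatory receptors 3 of 14 were lower in HP1a WT, Cd28 (-0.60, adjusted p = 0.00428), Icos (-0.48, adjusted p = 0.0328) and Tnfrsf4 (-0.82, adjusted p = 0.0474). Of the signalling genes 1 of 15 was higher, Dgka, a kinase that consumes diacylglycerol (0.41, adjusted p = 0.0114), while Lck, Fyn and Lgals1, the most abundant of them, had log2 fold changes of 0.05, -0.13 and -0.01.

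The partners of Entpd1 in the adenosine pathway were 8 tested genes of 10, and none passed between KO and WT. Of all genes 0% passed in the HP1a line and 0.327% in the HP1g line. Nt5e, which encodes CD73 and takes the next step to adenosine, had log2 fold changes of -0.15 in the HP1a line and -0.14 in the HP1g line (edgeR adjusted p = 0.946 and 0.804). Adora2a, an adenosine receptor that raises cyclic AMP, was at 101 CPM in both groups of the HP1a line and at 196 and 198 in HP1g KO and HP1g WT. It was called between the WT groups, 1 of 8 tested where 12.7% of all genes were called (log2 fold change -0.98, SE 0.166, adjusted p = 0.00706). P2rx7 and Slc29a1, also abundant, had log2 fold changes of 0.30 and -0.14 there.

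Of the 21 tested transcription factors tied to exhaustion, 8 were lower in HP1a WT than in HP1g WT and 0 higher at an adjusted p under 0.05, where 12.7% of all genes were called in either direction, with a median log2 fold change of -0.30 against 0.015 over all genes. They were Nr4a3 (-1.37, SE 0.358, adjusted p = 0.034), Irf4 (-1.06, SE 0.168, adjusted p = 0.00569), Nr4a2 (-0.82, SE 0.209, adjusted p = 0.0308), Eomes (-0.68, SE 0.126, adjusted p = 0.0096), Tox4 (-0.52, SE 0.079, adjusted p = 0.00451), Prdm1 (-0.48, SE 0.100, adjusted p = 0.0147), Egr3 (-0.40, SE 0.098, adjusted p = 0.0272) and Nfatc1 (-0.30, SE 0.087, adjusted p = 0.0485). Nr4a factors, Irf4 and Egr3 are induced by T cell receptor signals within hours, and Prdm1 encodes Blimp-1, a repressor found in effector and exhausted cells. Tcf7 and Nr4a1, the most abundant of the list, were at 0.06 and -0.46 (adjusted p = 0.532 and 0.203). In KO against WT of either line 0 of the 21 passed, against 0% of all genes in the HP1a line and 0.327% in the HP1g line. At an unadjusted p under 0.05 stood 1 in the HP1a line (lower) and 5 in the HP1g line (2 higher, 3 lower), against 4.27% and 11.9% of all genes. Medians were 0.06 in the HP1a line and 0.03 in the HP1g line.

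Of 12 anergy genes all were tested and 0 passed between KO and WT, against 0% of all genes in the HP1a line and 0.327% in the HP1g line. By the edgeR test Il10 (-1.26, SE 0.198, adjusted p = 0.00527) and Egr3 were lower and Dgka higher in HP1a WT than in HP1g WT, where 12.7% of all genes were called. Izumo1r, which encodes folate receptor 4 and marks anergic cells together with CD73, was at 253 and 246 CPM in HP1a KO and WT and at 221 and 251 in HP1g KO and WT. Of the 104 names of an exhaustion gene set listed by the study, 102 were in the table. In the HP1a line 94 were tested and 0 passed, against 0% of all genes. In the HP1g line 1 of 95 passed, against 0.327% of all genes. It was Penk, which encodes proenkephalin and was at 45.3 CPM in HP1g KO against 18.3 in HP1g WT (log2 fold change 1.32, SE 0.212, edgeR adjusted p = 0.0316). Between the WT groups, where 12.7% of all genes were called, 20 of 96 were lower and 1, Prc1, was higher in HP1a WT, with Fasl (-0.82, adjusted p = 0.00139), Gpr65 (-0.96, adjusted p = 0.00259) and Etf1 (-0.69, adjusted p = 0.00524) at the smallest p values. Several genes stand in more than 1 of these lists, Dgka, Egr3, Eomes, Il10, Nfatc1, Nr4a2 and Prdm1 among them.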

How the data were processed

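Deposited tables of RNA-Seq from 16 samples of memory CD4+ T cells of the spleen were used. The authors processed reads with nf-core/rnaseq (Trim Galore, STAR, Salmon) and deposited estimated counts per gene, of which 11.55% were not whole. The authors also deposited TPM, abundance per transcript length from the same quantification. Counts were rounded, and groups followed the labels. The main test was the edgeR (version 4.0.16, R 4.3.3) quasi-likelihood test with TMM scaling, filterByExpr (minimum count 10) and Benjamini-Hochberg adjustment over all tested genes, on the 8 samples of each comparison, and on all 16 samples for the interaction. A call is an adjusted p under 0.05. DESeq2 1.42.0 and limma 3.58.1 on log2(TPM + 1) were alternatives, with other filters, scalings, a replicate block and each sample left out. CPM used TMM library sizes. Depth ran from 26694045 to 40199637 counts per sample, and counting precision was lowest for Cd244a and Havcr2, which had the fewest counts. Genes of like level lay within 0.5 log2 CPM. Deviations of log2 CPM (prior count 2) from group means were correlated, with 100000 permutations within groups. Positions came from a GRCm39 annotation, which is not the release the authors used, and promoter windows from RefSeq GRCm38.p6. The edgeR fits and the correlations were tested on simulated data. Members and lists were chosen with earlier results of these data known. Named were all members, targeted genes, nearest tested neighbours, the 3 genes most alike to each member, list genes that passed and otherwise up to 3 of the highest TPM per list. Of the study's exhaustion set only the called genes with the smallest p values were named. No pair of replicates looked like 1 library deposited again (smallest chi-square per gene 10.4 over 24 pairs).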

Additional observations from a re-analysis of the deposited data

Results flagged for a closer look

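In 4 of the 36 sets of 4 samples (9 genes in 4 groups) 1 sample stood apart from the others of its group by Dixon's ratio, the gap to the nearest sample over the range, above the critical value for 4 samples. Chance gives about 1 in 20 such sets. Pdcd1 in HP1g KO replicate 2 was at 46.7 CPM against 34.1 in the next sample (ratio 0.896). Entpd1 in HP1g WT replicate 4 was at 29.2 CPM against 24.0 (ratio 0.885). Lag3 in HP1g WT replicate 1 was at 76.7 CPM against 42.9 (ratio 0.856), and without that sample the log2 fold change of Lag3 between HP1g KO and HP1g WT was 0.08 in place of -0.20. Cd244a in HP1a KO replicate 4 was at 2.50 CPM against 0.925 (ratio 0.850), and without it the log2 fold change between HP1a KO and HP1a WT was -0.21 in place of 0.41. Neither value passed the test with or without the sample.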

How the results depend on the processing

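No alternative called any of the 9 genes between KO and WT in either line or for the interaction. Between HP1a WT and HP1g WT 0 genes were called, against 1 with DESeq2 and 1 with the replicate block, in both Cd160 (log2 fold change 0.42, adjusted p = 0.0286, and 0.41, adjusted p = 0.0498), 2 with both genotypes of each line, and 0 to 1 with 1 sample left out, where the call came without HP1a WT replicate 3. Of the 36 pairs of genes 2 covaried, against 4 on log2(TPM + 0.1), 1 with the replicate block (Tox and Tigit, adjusted permutation p = 0.0335, while Tox and Pdcd1 had 0.0923), and 0 to 3 with 1 sample left out. Of the alternative values of log2 fold changes 648 kept sign and side of the threshold, 67 changed sign and 5 newly passed. None of those that changed sign had passed the test. With limma on log2(TPM + 1), with or without a filter, the log2 fold changes were -0.0027 for Havcr2 and 0.017 for Entpd1 (HP1a KO against WT), 0.092 for Pdcd1 (HP1g KO against WT), -0.018 for Pdcd1 and -0.0075 for Cd244a (WT groups) and -0.011 for Tox (interaction). On log2(TPM + 0.1) they were -0.062 for Havcr2 and 0.018 for Entpd1 (HP1a), 0.096 for Pdcd1 and 0.0081 for Havcr2 (HP1g), -0.019 for Pdcd1 and -0.068 for Cd244a (WT groups), and -0.011 for Tox and -0.070 for Havcr2 (interaction). For Pdcd1 between WT groups they were -0.0045 with DESeq2, -0.0034 with RLE size factors, -0.0058 with at least 10 counts in every sample, -0.022 with the replicate block and -0.15 with both genotypes, where Cd244a was at -0.13. The replicate block gave -0.075 for Havcr2 (HP1a) and 0.030 for Pdcd1 (HP1g). With 1 sample left out the ranges of values that changed sign were, for HP1a KO against WT, -0.43 to 0.35 for Havcr2, -0.17 to 0.067 for Cd160 and -0.21 to 0.71 for Cd244a. For HP1g KO against WT they were -0.20 to 0.20 for Pdcd1, -0.41 to 0.080 for Lag3, -0.46 to 0.15 for Havcr2 and -0.32 to 0.11 for Tigit. Between WT groups they were -0.27 to 0.22 for Pdcd1, -0.55 to 0.081 for Lag3 and -0.20 to 0.32 for Cd244a. For the interaction they were -0.43 to 0.20 for Lag3, -0.25 to 0.55 for Havcr2, -0.32 to 0.12 for Tigit and -0.10 to 0.16 for Tox. The causes were not tested. Over all genes, 49 calls between HP1g KO and WT became 252 with DESeq2, 96 with all 16 samples, 31 with at least 10 counts and 12 to 32 with limma. The 1887 calls between WT groups became 577 with the replicate block and 551 to 1210 with limma, the 8 of the interaction became 79 with DESeq2, and the 0 between HP1a KO and WT became 5. The labels give no shared litter or day behind the replicate numbers, and not every pair deviated together: the correlation of deviations was over 0.1 in 3 of 4 pairs of the HP1a line, 2 of 4 of the HP1g line and 0 of 4 of the WT groups. Cd244a (10 to 105 counts) and Havcr2 (32 to 188 counts) were limited by depth.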
